A study of Mus musculus with 15 samples.

Results

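The 9 transcription factors described here, Tbx21, Eomes, Gata3, Bcl6, Prdm1, Runx3, Gfi1, Id2 and Tcf7, are known for steering T cells into helper, cytotoxic, follicular or memory fates. They were chosen by name, with earlier results of these data known. Every array probe that carried a transcript accession of a member was taken, which gave 12 probes of 41174 for 9 of the 18217 genes with a name. Runx3, Id2 and Tcf7 had 2 probes each, and the other 6 genes had 1. The brighter probe stands for a gene unless the dimmer one is named.

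Naive T cells that meet foreign tissue divide and take on an effector program set by a small number of DNA-binding proteins. T-bet (Tbx21) and eomesodermin (Eomes) drive interferon and killing genes, Gata3 drives the Th2 program, Bcl6 drives follicular helper cells, and Blimp-1 (Prdm1) opposes Bcl6 and terminal effector cells depend on it. TCF-1 (Tcf7) maintains naive and memory cells, whereas Id2, an inhibitor of E proteins that does not itself bind DNA, favours effector cells. Several of the 9 also act outside T cells, for example Bcl6 and Prdm1 in B and plasma cells and Id2 in many tissues.

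RNA from whole mouse organs was hybridised to 15 arrays of 1 colour, with 3 arrays in each of 5 groups. Heart allografts were taken at POD5 (post-operative day 5) after heterotopic transplantation from C57BL/10 (H-2b) donors into the abdomen of CBA (H-2k) recipients. Liver allografts were taken at POD5 or POD8 after orthotopic transplantation from B10.BR (H-2k) donors into B10.D2 (H-2d) recipients. The controls were 3 hearts and 3 livers labelled normal, of a strain not given in the sources used here, and because isografts are also named as the comparison tissue, whether the controls had been transplanted is not settled. All mice were male, and no drug treatment is named. Tissue was not sorted, so graft cells and infiltrating recipient cells were measured together, and in such samples fewer cells of a type and less RNA per cell cannot be told apart. The labels do not tie each array to a mouse of its own. P-values from Limma and the t-test therefore measure only the spread between these samples, which may be technical. The standardized fold change of the study (SFC) scales a difference of group medians by those of probes of similar signal. Its P-values do not measure the spread between samples.

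Signal strength differed between the groups before normalization. The 75th percentile of the processed signal was lowest in the liver controls, at 92.1 to 226, against 338 to 478 in the liver allografts at POD5, 384 to 454 at POD8, 394 to 710 in the heart allografts and 1021 to 1247 in the heart controls. The share of probes well above background was 52.5% to 57.0% in the liver controls and 56.2% to 70.5% on the other arrays. The 3 heart allografts shared a slide and the 3 heart controls shared another, and for the heart the slide and the group therefore cannot be told apart. The POD5 liver allografts, on 2 slides, had no slide in common with the liver controls or with the POD8 liver allografts, so those comparisons have no within-slide value. Cardiomyocyte markers summed to a normalized signal of 660155 to 1221986 in the hearts and at most 1692 in the livers, and hepatocyte markers to at least 608574 in the livers and at most 700 in the hearts, which matched the tissue labels. Levels below are log2 signals after quantile normalization over the 15 arrays. Differences are log2 differences from Limma with Benjamini-Hochberg adjusted P-values over all probes, and a gene was called at an adjusted P below 0.05. A probe that was not well above background on any array of a group has only an upper bound there, and its difference is then also given as at least N-fold, from the lowest signal that was well above background.

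Promoter sequence of 250 bases upstream of each annotated start was read from RefSeq (GRCm38.p6), with 13 windows for the 9 genes. Tbx21 is shown as a member that was called in all 3 comparisons of allografts with controls, as Gfi1 also was. Both starts of Bcl6 and both starts of Runx3 are shown because the 2 windows of each gene differed in motif content, and because Bcl6 was the only member not called in the heart and the 2 Runx3 probes disagreed in the liver. The windows are written 5′ to 3′ on the strand of the gene, and capitals mark matches to the STAT motif TTCNNNGAA in Bcl6 and to the RUNX motif TGTGGT, or ACCACA on the other strand, in Runx3.
Tbx21, chr11:97115332-97115581, minus strand: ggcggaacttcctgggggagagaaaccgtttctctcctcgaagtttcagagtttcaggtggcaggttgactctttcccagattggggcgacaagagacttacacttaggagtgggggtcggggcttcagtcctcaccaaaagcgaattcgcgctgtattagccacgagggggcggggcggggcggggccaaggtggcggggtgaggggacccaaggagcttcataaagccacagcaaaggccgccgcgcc
Bcl6 upstream start, chr16:23988853-23989102, minus strand: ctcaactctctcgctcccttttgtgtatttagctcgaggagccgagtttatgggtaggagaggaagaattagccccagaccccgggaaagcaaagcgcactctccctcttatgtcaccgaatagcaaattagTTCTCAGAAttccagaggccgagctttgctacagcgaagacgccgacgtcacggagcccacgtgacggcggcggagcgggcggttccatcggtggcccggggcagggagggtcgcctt
Bcl6 downstream start, chr16:23981284-23981533, minus strand: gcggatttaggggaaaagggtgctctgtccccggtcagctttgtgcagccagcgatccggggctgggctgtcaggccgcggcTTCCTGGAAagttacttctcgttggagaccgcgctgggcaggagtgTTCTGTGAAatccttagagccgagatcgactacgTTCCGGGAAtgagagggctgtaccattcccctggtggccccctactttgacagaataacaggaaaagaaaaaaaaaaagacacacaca
Runx3 upstream start, chr4:135120395-135120644, plus strand: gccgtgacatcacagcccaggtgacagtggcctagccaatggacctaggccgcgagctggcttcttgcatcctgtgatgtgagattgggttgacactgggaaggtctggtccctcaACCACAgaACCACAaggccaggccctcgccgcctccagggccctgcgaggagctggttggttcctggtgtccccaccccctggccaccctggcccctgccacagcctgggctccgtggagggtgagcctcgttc
Runx3 downstream start, chr4:135152295-135152544, plus strand: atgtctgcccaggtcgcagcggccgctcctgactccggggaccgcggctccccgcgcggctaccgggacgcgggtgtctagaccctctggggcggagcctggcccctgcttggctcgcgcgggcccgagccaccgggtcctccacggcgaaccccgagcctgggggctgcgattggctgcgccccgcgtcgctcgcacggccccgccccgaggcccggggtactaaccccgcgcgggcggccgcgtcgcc

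Of 32851 promoter windows of the same length, 7.02% held the STAT motif, and among the members it stood in both Bcl6 windows, once in the upstream one and at 3 places in the downstream one. The RUNX motif stood in 14.05% of all windows and in the upstream Runx3 window at 2 places, which began 134 and 126 bases before the start. No match to it was found in the downstream Runx3 window. The E-box CAGCTG, which was in 13.0% of all windows, occurred in the Id2 window and in the upstream Tcf7 window. In the Tcf7 window it follows an ATG in the same reading frame, so that stretch may be coding sequence rather than promoter. The T-box letters AGGTGTG (5.1% of all windows) and the GATA letters AGATAA (9.99%), searched on both strands, matched no member window. The matches in these windows did not overlap one another. They are matches of letters only, and binding was not measured.

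In the heart at POD5, 8 of the 9 factors were called higher in the allografts and Bcl6 was not called, whereas 32% of all 41025 probes were called, 15.6% higher and 16.4% lower. Tbx21 and Gfi1, 2 of 9, were called higher in the POD5 livers, where 3.16% of 41155 probes were called, 2.38% higher and 0.778% lower. At POD8, Tbx21, Eomes, Prdm1 and Gfi1 were called higher, 4 of 9, and 4.97% of 41157 probes were called, 3.53% higher and 1.44% lower. Tbx21 and Gfi1 were thus called in all 3 comparisons, and no member was called lower in any of them. The liver POD5 and POD8 comparisons share their control arrays.

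All 3 allografts lay above all 3 controls for 8 members in the heart, where 29.1% of probes did so. The same held for 6 members in the POD5 livers (12.4% of probes) and 6 in the POD8 livers (12.9% of probes). The median difference over the 9 members was 1.87 for hearts, 2.95 for POD5 livers and 1.73 for POD8 livers, against 0.02, -0.07 and -0.08 over all probes. With members that were dim in the controls set to their bound, the liver medians were 1.95 at POD5 and 1.11 at POD8. Scaling to the 75th percentile moved the median of all probes to 0.47, -0.39 and -0.47. Relative to those medians, each called member was still higher, by 0.46 (Id2 in the heart) to 4.78 (Gfi1 in the liver at POD5). Under that scaling, 15713 probes were called higher and 5496 lower in the heart, against 6394 and 6722 here, and at POD8 in the liver 2338 and 10684, against 1453 and 593.

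The size of the changes, more than their direction, moved with the background correction. With normexp and an offset of 50, which by construction compresses low signals, the heart differences of Tbx21, Gfi1, Eomes and Tcf7 were 3.14, 1.85, 0.63 and 1.44, and all 4 were still called. The liver differences of Gfi1 became 1.57 at POD5 and 1.31 at POD8, both called, and those of Gata3 became 1.59 and 1.20. SFC with Bonferroni adjustment called Tbx21 alone of the 9 in the heart. Of the liver arrays, POD8 allografts 1 and 2 and liver controls 1 and 2 shared a slide, and within it, a comparison chosen after the data were seen, the POD8 differences were 2.80 for Tbx21, 2.02 for Eomes and 4.24 for Prdm1 (adjusted P = 0.0872, 0.0941 and 0.0979), with 2 arrays a group and none called.

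**Figure D1:**
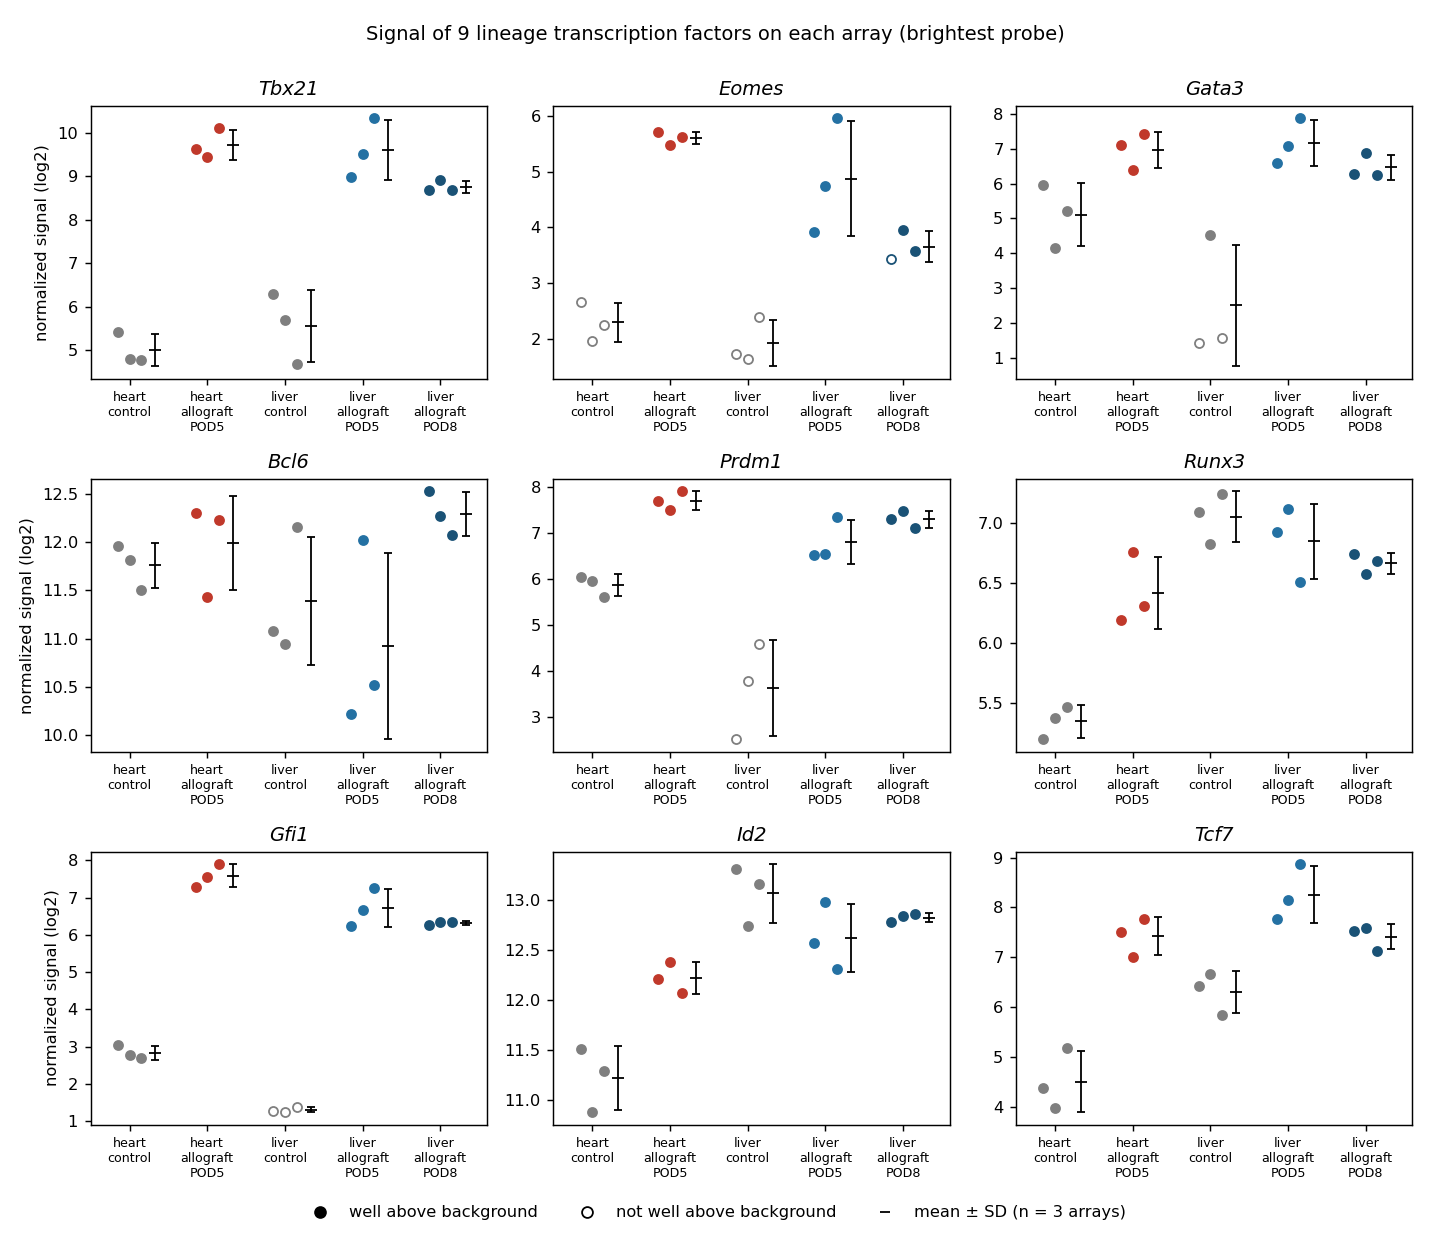
Normalized log2 signal of each of the 9 factors (brightest probe) on each of the 15 arrays, with 3 arrays a group, open points not well above background, and bars for mean and SD; each panel has its own axis range. Tbx21, Eomes, Gata3, Prdm1, Gfi1 and Tcf7 lie above the controls of their organ in every allograft group. For Bcl6 each group overlaps the next in level, and the liver controls of Runx3 and Id2 lie highest.

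Tbx21, the gene of the Th1 factor T-bet, gave 5.42, 4.80 and 4.77 on the heart control arrays and 9.62, 9.44 and 10.11 on the heart allograft arrays. The livers gave 6.30, 5.69 and 4.68 in the controls, 8.98, 9.51 and 10.34 at POD5 and 8.68, 8.91 and 8.68 at POD8. Every allograft lay above every control, in both organs. Tbx21 rose 26.5-fold in heart allografts (log2 difference 4.73, 95% CI 4.07 to 5.39, adjusted P = 0.000759). It rose 16.5-fold in POD5 livers (4.05, 2.69 to 5.41, adjusted P = 0.0307) and 9.19-fold in POD8 livers (3.20, 2.13 to 4.27, adjusted P = 0.0235). The heart and liver allografts at POD5 overlapped, the POD8 livers came next with no overlap, and the 2 control groups overlapped below them. The heart call of Tbx21 held in 15 of 15 alternatives. The liver POD5 call was lost without any 1 of the 3 allografts or without liver control 2 or 3 (differences 3.61 to 4.37, adjusted P up to 0.117), and the POD8 call without any 1 of the 3 POD8 allografts or without liver control 2 (3.11 to 3.26, adjusted P up to 0.117), with 2 arrays left in a group. Counting every alternative, these calls of Tbx21 were lost in 7 of 15 at POD5 and 8 of 16 at POD8, the methods' t-test among them on both days (adjusted P = 0.101 and 0.0752).

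Eomes, a T-box factor of cytotoxic T and NK cells, was not well above background on any control array, at 2.67, 1.96 and 2.25 in the hearts and 1.73, 1.64 and 2.40 in the livers. The heart allografts gave 5.70, 5.48 and 5.61, the liver allografts 3.92, 4.74 and 5.96 at POD5 and 3.44, 3.96 and 3.57 at POD8. Every allograft value lay above every control value, and 2 of the 3 POD8 arrays were well above background. The heart difference was 3.30 (adjusted P = 0.000862), at least 8.28-fold. In the liver at POD5 the difference of 2.95 was at least 1.46-fold and was not called (adjusted P = 0.0619), although 4 of 15 alternatives called Eomes there, among them scaling to the 75th percentile (2.34, adjusted P = 0.0333). At POD8 the difference of 1.73 was called (adjusted P = 0.0325), but no fold is given, since the allograft mean did not exceed the bound of the controls. That POD8 call was lost without any 1 POD8 allograft or without liver control 1 or 2 (differences 1.58 to 1.84, adjusted P up to 0.136) and with normexp background correction (0.30, adjusted P = 0.0966), and in 10 of 15 alternatives in all.

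Runx3, a Runt-family factor that acts with T-bet in Th1 cells and in the CD8 lineage, was measured by 2 probes that carry the same transcript accession and that did not move alike. The brighter probe gave 5.20, 5.38 and 5.47 in the heart controls and 6.19, 6.76 and 6.31 in the heart allografts. Among the livers it gave 7.09, 6.82 and 7.24 in the controls, 6.92, 7.11 and 6.50 at POD5 and 6.74, 6.57 and 6.68 at POD8. On this probe the heart allografts lay above their controls, and the liver allografts lay within or below theirs. The heart difference was 1.07 (2.10-fold, adjusted P = 0.0103). For the livers it was -0.20 (95% CI -0.75 to 0.34, adjusted P = 0.638) at POD5 and -0.39 (-0.76 to -0.01, adjusted P = 0.211) at POD8, where all 3 allografts lay below all 3 controls, as 18.6% of probes did. Relative to the median of all probes under scaling to the 75th percentile, these 2 liver differences turned to 0.21 and 0.07.

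The dimmer Runx3 probe gave 4.74, 5.05 and 5.15 in the heart controls and 6.37, 5.77 and 6.62 in the heart allografts. It was not well above background on any liver control array, at 2.21, 2.82 and 1.47, and gave 5.03, 5.06 and 6.06 at POD5 and 5.09, 5.20 and 5.01 at POD8. In the heart both probes pointed the same way (1.27, adjusted P = 0.0169). Liver allografts were called higher on the dimmer probe on both days, at POD5 (3.22, at least 2.08-fold, adjusted P = 0.0346) and at POD8 (2.93, at least 1.70-fold, adjusted P = 0.0179), unlike the brighter one. The heart call of the dimmer Runx3 probe was lost without heart allograft 1 or heart control 1 or 2 (differences 1.14 to 1.30, adjusted P up to 0.0614). Its POD5 call was lost without any 1 of the 6 liver arrays (2.89 to 3.58, adjusted P up to 0.126) and its POD8 call without any 1 POD8 allograft (2.88 to 2.96, adjusted P up to 0.101). Over all alternatives these 3 calls were lost in 5 of 15, 9 of 15 and 7 of 16.

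**Figure D2:**
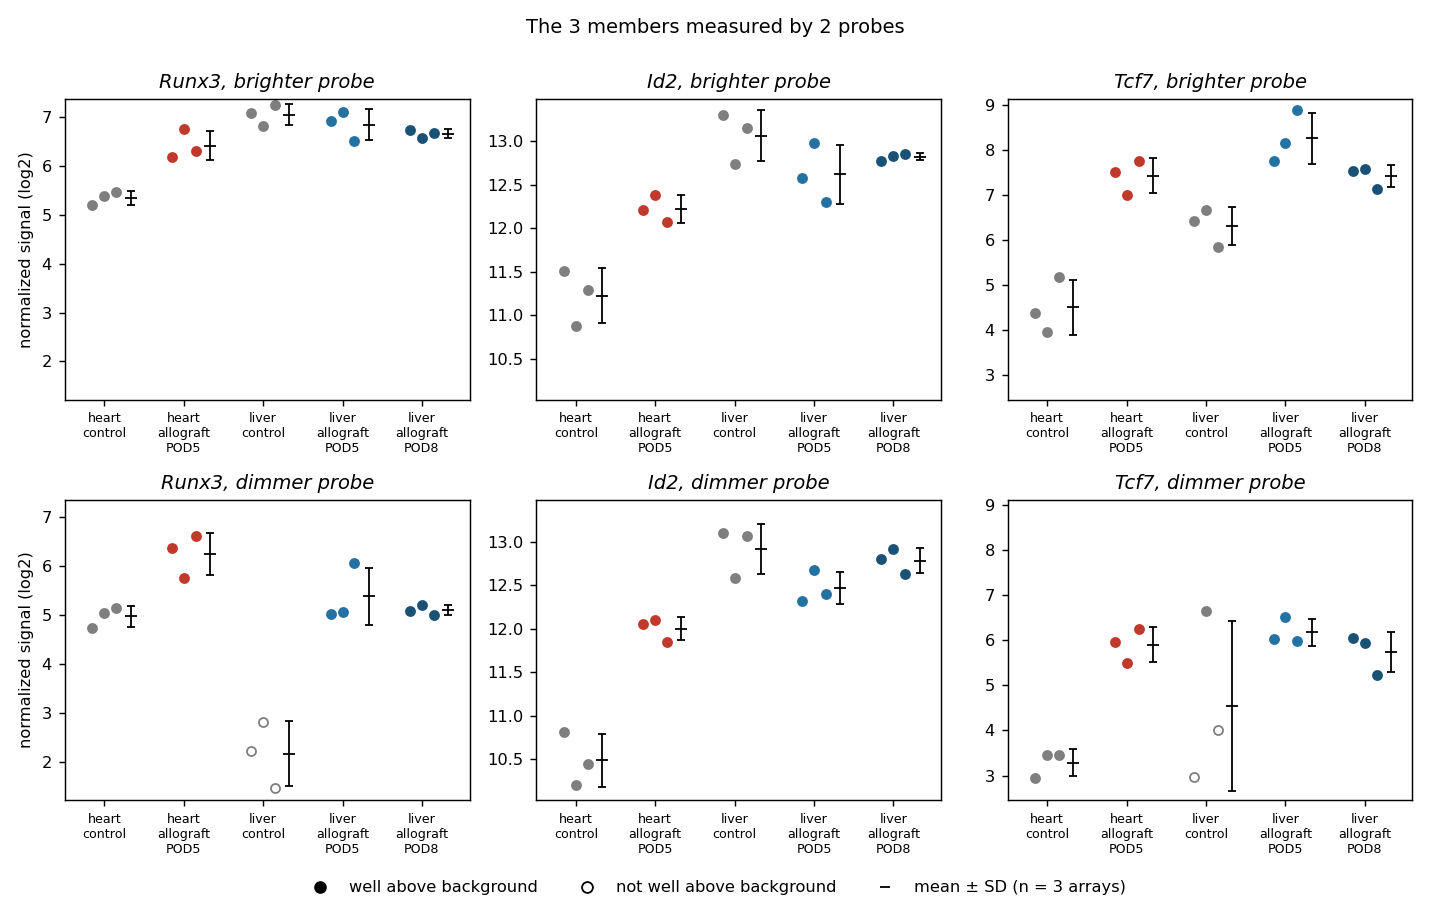
Normalized log2 signal of both probes of Runx3, Id2 and Tcf7 on each array (3 a group, bars for mean and SD, open points not well above background), with the brighter probe above and a shared axis range within a gene. The liver controls are the highest group on the brighter Runx3 probe and the lowest on the dimmer one, whereas the 2 Id2 probes have the same order of groups.

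Gata3, the master factor of Th2 cells, gave 5.96, 4.16 and 5.22 in the heart controls and 7.11, 6.40 and 7.42 in the heart allografts. The liver controls gave 1.42, 4.52 and 1.56, of which the second alone was well above background, and the liver allografts gave 6.58, 7.07 and 7.89 at POD5 and 6.29, 6.88 and 6.24 at POD8. All allografts lay above the controls of their organ, and liver control 2 stood far from the other two. The heart difference was 1.87 (3.65-fold, 95% CI 0.54 to 3.19, adjusted P = 0.0473). This call was lost without heart allograft 1 or 3 or heart control 2 or 3 (differences 1.38 to 1.91, adjusted P up to 0.129) and with slide as a random block (1.70, adjusted P = 0.283). It was also lost with 1 fit of 5 groups (adjusted P = 0.0773), by the methods' t-test (adjusted P = 0.0979) and under SFC, which makes 8 of 15 alternatives. The liver differences of Gata3 were larger but were not called, at 4.68 (2.33 to 7.04, adjusted P = 0.0684) for POD5 and 3.98 (1.70 to 6.25, adjusted P = 0.0776) for POD8. Without liver control 2 they were called, at 5.75 (adjusted P = 0.0348) and 5.04 (adjusted P = 0.00876). Gata3 was also called with all arrays kept, under scaling to the 75th percentile (3.94 and 3.17, adjusted P = 0.00716 and 0.0125), normexp, the filter on dim probes, 1 fit of 5 groups, slide as a random block and SFC, so that 7 of 15 alternatives called it at POD5 and 7 of 16 at POD8.

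Gfi1, a zinc-finger repressor that promotes the growth of Th2 cells and also acts in myeloid precursors, gave 3.05, 2.78 and 2.69 in the heart controls and 7.29, 7.55 and 7.90 in the heart allografts. The liver controls gave 1.29, 1.26 and 1.39, none well above background, and the liver allografts 6.24, 6.67 and 7.26 at POD5 and 6.27, 6.35 and 6.35 at POD8. Of the 5 groups, the heart allografts stood highest with no overlap, followed by the liver allografts of both days, which overlapped, the heart controls and the liver controls. Gfi1 rose 26.8-fold in the heart (4.74, adjusted P = 0.000476). In POD5 livers it was at least 5.25-fold higher (5.41, adjusted P = 0.00558), and in POD8 livers at least 3.98-fold higher (5.01, adjusted P = 0.000356). The Gfi1 POD5 call was lost without liver allograft 2 (5.45, adjusted P = 0.0545), and within the shared liver slide the POD8 difference was 5.03 (adjusted P = 0.0533).

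Bcl6, the factor of follicular helper T cells and germinal centre B cells, gave 11.96, 11.81 and 11.51 in the heart controls and 12.30, 11.43 and 12.23 in the heart allografts. The livers gave 11.08, 10.95 and 12.15 in the controls, 10.23, 12.02 and 10.52 at POD5 and 12.53, 12.27 and 12.08 at POD8. Each of the 5 groups overlapped the next in level. Bcl6 was not called in hearts (0.23, 95% CI -0.47 to 0.93, adjusted P = 0.577), in POD5 livers (-0.47, -1.95 to 1.02, adjusted P = 0.693) or in POD8 livers (0.90, -0.01 to 1.81, adjusted P = 0.231). The intervals for the hearts and the POD5 livers include changes in either direction, and relative to the median under scaling to the 75th percentile the heart difference was -0.28. Without liver control 3, the highest of its group, the POD8 difference of Bcl6 was 1.27 and was called (adjusted P = 0.0395). The 3 POD8 livers lay above the 3 POD5 livers (1.37, 0.13 to 2.61, adjusted P = 0.361), which 9.29% of probes also did. SFC, the standardized fold change of the study, called Bcl6 there (1.75, Bonferroni adjusted P = 3.73e-08). The SFC P-value does not use the spread between arrays, which ran from 10.23 to 12.02 at POD5.

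Prdm1, which encodes Blimp-1 of terminal effector T cells and plasma cells, gave 6.05, 5.94 and 5.60 in the heart controls and 7.69, 7.49 and 7.91 in the heart allografts. The liver controls gave 2.52, 3.78 and 4.59, none well above background, and the liver allografts 6.51, 6.54 and 7.35 at POD5 and 7.29, 7.48 and 7.10 at POD8. No allograft overlapped a control of its organ. Prdm1 rose 3.57-fold in hearts (1.83, adjusted P = 0.00212) and at least 7.35-fold in POD8 livers (3.66, adjusted P = 0.0300). The POD5 liver difference was 3.17, at least 5.24-fold, and was not called (adjusted P = 0.0580). In 5 of 15 alternatives Prdm1 was called there, among them scaling to the 75th percentile (2.98, adjusted P = 0.0116) and normexp (1.19, adjusted P = 0.0258). The POD8 call of Prdm1 was lost without any 1 POD8 allograft or without liver control 2 (3.56 to 3.76, adjusted P up to 0.138), and in 8 of 16 alternatives in all.

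Id2, the E-protein inhibitor, gave 11.51, 10.88 and 11.29 in the heart controls and 12.21, 12.38 and 12.07 in the heart allografts. Among the livers the values were 13.30, 12.74 and 13.16 in the controls, 12.57, 12.98 and 12.31 at POD5 and 12.78, 12.84 and 12.86 at POD8. The heart allografts lay above their controls, and the 3 liver groups overlapped one another above the heart controls. Id2 rose 1.99-fold in the heart (0.99, adjusted P = 0.0156), a call lost without heart control 3 (1.03, adjusted P = 0.0541), with the replicate number as a block (adjusted P = 0.0606) and under SFC. The liver differences of Id2 were -0.44 (95% CI -1.07 to 0.18, adjusted P = 0.371) at POD5 and -0.24 (-0.68 to 0.20, adjusted P = 0.472) at POD8. The dimmer Id2 probe gave a heart difference of 1.52 (2.86-fold, adjusted P = 0.00398) and uncalled liver differences of -0.45 at POD5 and -0.14 at POD8, the latter of which was 0.01 relative to the median under scaling to the 75th percentile.

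Tcf7, the gene of TCF-1, gave 4.38, 3.96 and 5.18 in the heart controls and 7.52, 7.0 and 7.76 in the heart allografts. The livers gave 6.41, 6.67 and 5.84 in the controls, 7.76, 8.14 and 8.87 at POD5 and 7.54, 7.58 and 7.13 at POD8. All allografts lay above the controls of their organ, and the 3 allograft groups overlapped in the order liver POD5, heart and liver POD8. Tcf7 rose 7.58-fold in the heart (2.92, 95% CI 1.99 to 3.86, adjusted P = 0.00459). The liver differences of 1.95 at POD5 (1.03 to 2.88, adjusted P = 0.0610) and 1.11 at POD8 (0.44 to 1.78, adjusted P = 0.0869) were not called. Tcf7 was called in 4 of 15 alternatives at POD5 and 2 of 16 at POD8, on both days under scaling to the 75th percentile (1.95 and 1.1, adjusted P = 0.0258 and 0.0215) and with the filter on dim probes (adjusted P = 0.0206 and 0.0488). The dimmer Tcf7 probe was called in the heart (2.62, 6.14-fold, adjusted P = 0.00234) and not in the liver (1.64 and 1.21). On that probe 1 of the 3 liver controls was well above background, at 6.64, above every liver allograft.

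**Figure D3:**
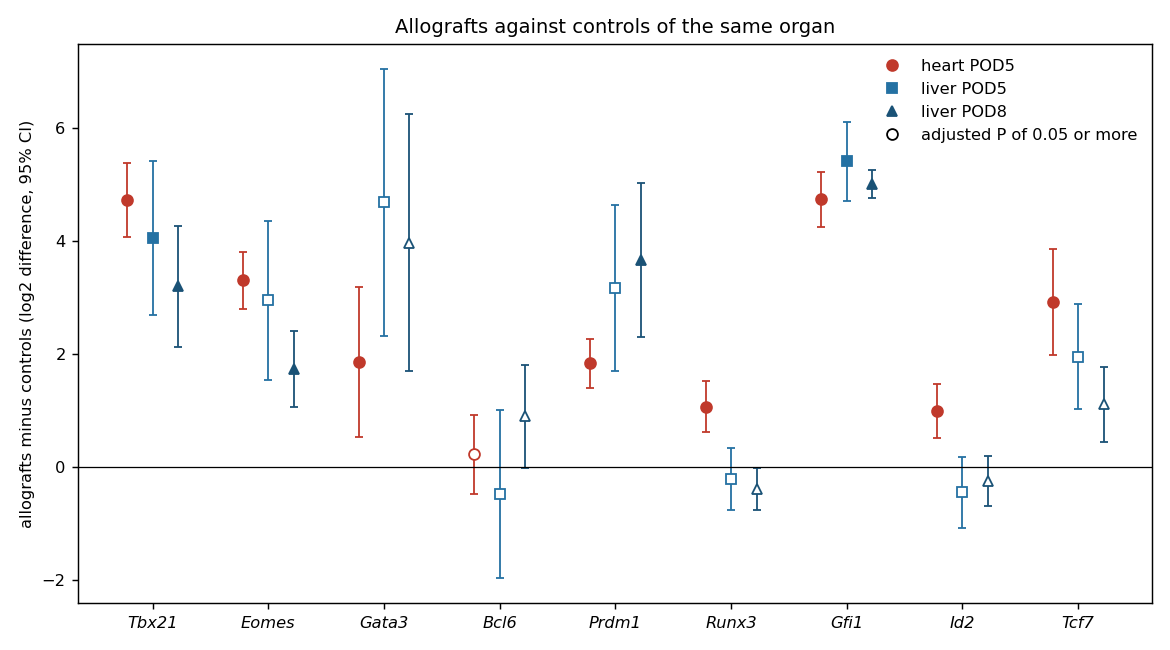
Log2 difference between allografts and controls of the same organ for each factor (brightest probe), with the 95% CI from Limma; filled symbols have an adjusted P below 0.05. In the heart 8 of 9 symbols are filled, and in the liver the intervals of Gata3 are the widest, while those of Runx3 and Id2 lie around or below 0.

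Whether the heart and the liver differed in their POD5 response was tested as an interaction. The organs also differed in strain pair and graft site, so these and the organ cannot be told apart. In neither organ did POD5 allografts and controls share a slide. In this test 13.7% of 41006 probes were called, 6.41% with a more positive and 7.26% with a more negative difference in the heart. Of the 9 members, Runx3 and Id2 were called more positive in the heart and none was called more negative on its brightest probe. For Id2 the heart difference exceeded the liver difference by 1.44 (95% CI 0.70 to 2.17, adjusted P = 0.0206) on the brighter probe and by 1.97 (1.33 to 2.61, adjusted P = 0.00367) on the dimmer one. On the brighter Runx3 probe the excess was 1.27 (0.61 to 1.93, adjusted P = 0.0220), and on the dimmer one it was -1.94 (-3.17 to -0.72, adjusted P = 0.0438). The dimmer probe was not well above background on any liver control array, so its liver difference has only a lower bound. At that bound the liver rise would be smaller than the heart rise, so the opposite sign is not settled. The call on the brighter Runx3 probe was lost without heart control 1 (1.19, adjusted P = 0.0577). The dimmer Runx3 probe lost its call in 14 of 19 alternatives, among them leaving out any 1 of the 12 arrays other than liver control 2 (-2.12 to -1.61, adjusted P up to 0.101), and with normexp correction its excess was -0.15 (adjusted P = 0.649).

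No difference between organs was called for the other 7 members, and their intervals were wide. The excess in the heart was 0.68 for Tbx21 (95% CI -0.73 to 2.09, adjusted P = 0.499) and 0.35 for Eomes (-1.04 to 1.75). It was -2.82 for Gata3 (-5.34 to -0.30, adjusted P = 0.126), and without liver control 2 it was -3.88 and called (adjusted P = 0.0138). For Prdm1 it was -1.34 (-2.76 to 0.09, adjusted P = 0.190), and without liver control 3 it was -1.83 and called (adjusted P = 0.0434). With scaling to the 75th percentile, 12978 probes were called more positive and 2729 more negative, against 2628 and 2977 here.

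The liver controls were also compared with the heart controls, where 48.2% of probes were called and 35.7% lay above with no overlap. Runx3 (1.70, adjusted P = 0.000629), Id2 (1.84, adjusted P = 0.00205) and Tcf7 (1.80, adjusted P = 0.0130) were called higher in the liver controls, where 22.7% of 41023 probes were. Prdm1 (-2.23, at least 2.73-fold lower, adjusted P = 0.0204) and Gfi1 (-1.53, adjusted P = 0.000561) were called lower, as were 25.5% of probes. Gfi1 was dim in the liver controls, so no fold is given, and under scaling to the 75th percentile, which moved the median of all probes to 0.81, its difference was -0.08 (adjusted P = 0.820) and -0.89 relative to that median. The dimmer Runx3 probe was lower in the liver controls (-2.81, at least 1.57-fold, adjusted P = 0.00216), opposite to the brighter one. The calls of Tcf7 and Prdm1 were lost without heart control 1 (1.73 and -2.13, adjusted P = 0.0515 and 0.0721), and that of Prdm1 also without heart control 2 or 3 or liver control 2 (-2.35 to -2.18, adjusted P up to 0.0675). Bcl6 was called without liver control 3 (-0.74, adjusted P = 0.0253) and Gata3 without liver control 2 (-3.68, adjusted P = 0.00972). With scaling to the 75th percentile 19976 probes were called higher and 8419 lower, against 9321 and 10460 here.

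Between the liver allografts of POD8 and POD5, Limma called 0 of 41165 probes (0%), with 5299 at an unadjusted P below 0.05, 2 members among them. The methods' t-test with Benjamini-Hochberg adjustment called 3 probes, and SFC with Bonferroni adjustment called 213. The largest member differences were 1.37 for Bcl6, -1.22 for Eomes (95% CI -2.55 to 0.11, adjusted P = 0.419), -0.85 for Tbx21 (-1.74 to 0.04, adjusted P = 0.406) and -0.84 for Tcf7 (-1.64 to -0.05, adjusted P = 0.370). The 3 POD8 livers lay below the 3 POD5 livers for Tbx21 and Tcf7, as for 10.4% of probes. Gfi1 (-0.40), Gata3 (-0.71), Prdm1 (0.49), Id2 (0.20) and Runx3 (-0.18) overlapped between the days.

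The counts in the lists from here on stand against the shares of all probes called in hearts, POD5 livers and POD8 livers. These were 15.6%, 2.38% and 3.53% higher, and 16.4%, 0.778% and 1.44% lower. Of 10 T cell markers, 10 were called higher in hearts and 8 in livers of each day, with median differences of 4.43, 4.44 and 3.76. Their summed normalized signal was 598 to 870 in the heart controls and 14252 to 22566 in the heart allografts. For the livers it was 738 to 957 in the controls, 9420 to 15441 at POD5 and 8072 to 10295 at POD8, with Cd8a and Cd247 not well above background on any liver control array. The 5 NK cell markers summed to 422 to 593 in the heart controls and 2377 to 2913 in the heart allografts, and to 87.3 to 202, 1172 to 2118 and 943 to 1361 in the 3 liver groups in the same order. Called higher were 5, 1 and 3 of the 5, and Ncr1, Klra8 and Klre1 were not well above background in the liver controls, nor was Ncr1 in the POD5 livers. Of 10 B and plasma cell markers, Limma called 0 higher in each of the 3 comparisons (2, 1 and 3 at an unadjusted P below 0.05 in either direction), 1 was called lower in the heart, and their sums overlapped between allografts and controls in both organs. Macrophage markers, 9 of them, summed to 16772 to 43125 in the liver controls, 60332 to 82687 at POD5 and 82932 to 105695 at POD8, with 1 called higher at POD8, and overlapped in the heart, where 3 were called lower. The 5 neutrophil markers summed to 8426, 34325 and 11236 in the heart allografts against 38846, 33773 and 54162 in the heart controls, with 1 called higher, and overlapped between the 3 liver groups, with 1 called lower at POD5. In the heart allografts 5 of 8 cardiomyocyte, 5 of 6 cholangiocyte (epithelial) and 5 of 5 endothelial markers were called lower. The part of these cell types in the changes of the 9 factors was not tested.

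Genes downstream of T-bet and Eomes were the pathway list with the largest share called higher. Of 13 Th1 and cytotoxic effector genes, 11 were called higher in each of the 3 comparisons, with median differences of 4.15, 4.16 and 4.45 (4.10 and 3.12 in the liver with dim genes at their bound). Among hearts, Nkg7, a cytotoxic granule protein, rose 55.7-fold, the chemokine Ccl5 45.6-fold and interferon gamma (Ifng) by a log2 difference of 10.56 ± 0.99 (95% CI, adjusted P = 0.000432). For POD5 livers, granzyme A (Gzma) rose 28.2-fold, granzyme B (Gzmb) by 7.12 ± 1.03 and Nkg7 36.2-fold. At POD8, Gzma rose 45.4-fold, Ccl5 30.7-fold and Ifng 72.8-fold, with 2 of the 3 liver controls above background for Ifng.

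Genes of the Th2 program, driven by Gata3, were measured at low signal, and 4 of 9 were well above background on no array of either group in each comparison. In heart allografts 6 of 9 were called higher, among them the prostaglandin receptor gene Ptgdr2 (1.39, 2.62-fold), and Ccr8 and Ccr4, which were below background in both groups and have no fold. Il10 and Il1rl1, the IL-33 receptor, were called in POD5 livers (at least 2.60-fold and 6.64-fold) and in POD8 livers (at least 3.01-fold and 3.09-fold), where Ccr8 was the third, below background in both groups. Of 6 Th17 genes, 3 were well above background on no array of either group in each comparison. Ccr6 (5.40-fold) and Il17f (0.93, 1 of 3 arrays above background in each group) were called higher and the IL-1 receptor Il1r1 (-1.34) lower in the heart. Limma called 0 of the 6 for livers (at an unadjusted P below 0.05, 0 at POD5 and 2 at POD8). The median differences were 1.39, -0.09 and 0.39 for the Th2 list, with a positive POD5 median of 0.42 once dim genes were at their bound, and 0.70, -0.06 and -0.15 for the Th17 list.

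Of 8 genes listed for follicular helper cells, whose program Bcl6 drives, 5, 3 and 4 were called higher. Which cells carried the signal of these genes was not tested. Their medians were 1.48, 2.27 and 2.24, and Bcl6 itself was not called. Pdcd1, the gene of PD-1, rose 31.1-fold in the heart and was called in the liver at POD5 (6.25 ± 2.60, with 1 of 3 controls above background). The costimulatory receptor Icos rose 15.7-fold in hearts, 6.81-fold in POD5 livers and 5.94-fold in POD8 livers. Il21 was called in the heart (at least 1.81-fold, with 1 of 3 allografts above background) and at POD8 (at least 1.01-fold), and the adaptor gene Sh2d1a in the liver at both days (at least 9.03-fold and 5.41-fold). Of the 6 naive and memory genes, the program that TCF-1 maintains, 4, 2 and 4 were called higher, with medians of 2.12, 2.72 and 2.74. Cd27 rose 31.8-fold in hearts, and Ccr7, a lymph node homing receptor, 5.38-fold there and 9.60-fold in POD8 livers, where 1 of 3 controls was above background. The costimulatory receptor Cd28 was at least 3.93-fold higher in POD5 livers and at least 1.62-fold in POD8 livers.

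Of 7 STAT genes, which relay the cytokine signals that induce these factors, 4 were called higher in the heart and 2 in the livers of each day. Of all probes, 15.6%, 2.38% and 3.53% were called higher. The medians of the STAT genes were 0.97, 0.01 and 0.11. Stat2 (6.41-fold) and Stat5a (2.10-fold) were called in the heart, and Stat4, the IL-12 transducer, in livers (4.49 ± 1.19 and 4.25 ± 1.13 on the 2 days, with 1 of 3 controls above background). Among 14 upstream cytokine and receptor genes, 7, 3 and 3 were called higher, with medians of 0.67, 0.24 and 0.40. In the heart 1 was called lower, as were 16.4% of all probes. The IL-12 receptor gene Il12rb1 rose 75.5-fold in the heart and 3.80-fold and 3.88-fold in the liver, and the IL-2 and IL-15 receptor chain Il2rb 40.6-fold, 16.6-fold and 10.9-fold. Il2ra rose 19.9-fold in the heart, with 2 of 3 controls above background, and was called at POD8 while below background in both groups. The interferon gamma receptor gene Ifngr1 rose 2.05-fold in POD5 livers.

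Of 22 other factors of T cell fate, 9, 4 and 4 were called higher, against 15.6%, 2.38% and 3.53% of all probes. Called lower were 4 in the heart and 1 at POD8, against 16.4% and 1.44% of all probes, and the medians were 0.26, 0.38 and 0.41. Zbtb32, a zinc-finger repressor of activated lymphocytes, was called in all 3 comparisons (7.11 ± 0.94 in the heart with 2 of 3 controls above background, at least 15.6-fold in POD5 livers and 5.15-fold in POD8 livers). Foxp3, the factor of regulatory T cells, was at least 3.64-fold higher in the heart, with 2 of 3 allografts above background, and Ikzf3 rose 8.79-fold. In the liver the lymphoid factor Ikzf1 rose 4.47-fold and 3.64-fold, and Ikzf2 at least 2.67-fold and 3.10-fold. Of the 3 E-protein genes, whose products Id2 binds, Tcf12 (-1.77 ± 0.41, adjusted P = 0.00198) and Tcf4 (-1.09 ± 0.53, adjusted P = 0.0159) were called lower and Tcf3 (0.67 ± 0.40, adjusted P = 0.0274) higher in the heart, and Limma called 0 in the liver (0 at an unadjusted P below 0.05 at either day).

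**Figure D4:**
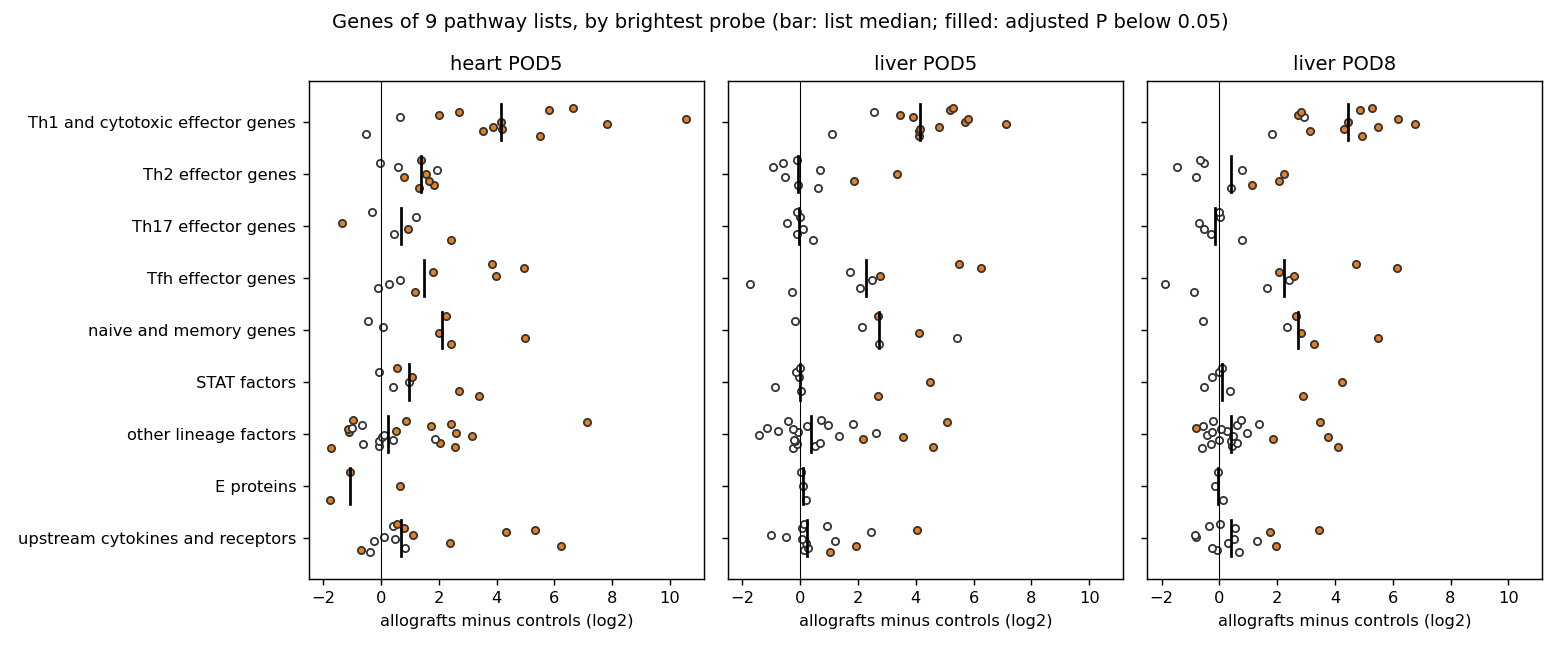
Log2 difference between allografts and controls for each gene of 9 pathway lists (1 point a gene, brightest probe), with a bar at the list median and filled points at an adjusted P below 0.05. The Th1 and cytotoxic list lies furthest to the right in all 3 panels, with medians of 4.15, 4.16 and 4.45. The Th17 list lies near 0 in the liver, where 3 of its 6 genes were well above background on no array compared.

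The genes most like each member over the 15 arrays were found by the root mean square (RMS) difference between log2 signals centred on each gene's mean, among 14913 genes. Because the arrays fall into groups and organs, likeness here includes shared group levels. Tbx21 was nearest to Cd5 (RMS 0.34) and Il2rb (0.44), against its own RMS spread of 2.08, and Gfi1 to Cst7 (0.42) and Cd3d (0.44), against 2.45. Prdm1 was nearest to Prkch and Rhoh (both 0.39, own spread 1.51), Gata3 to Klrd1 (0.54) and Ipcef1 (0.61, own spread 1.91), Eomes to Sapcd2 (0.48) and Uhrf1 (0.51, own spread 1.49), and Tcf7 to Ocstamp (0.44) and H2-Q10 (0.48, own spread 1.35). For Bcl6 the nearest were Unk (0.44) and Il6st (0.48), against an own spread of 0.67. Runx3 was nearest to Tctn1 (0.15) and Sox21 (0.16), with an own spread of 0.62, and Id2 to Smarcd2 (0.19) and Ptms (0.21), with an own spread of 0.68.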

How the data were processed

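Single-colour arrays were scanned and read by the authors with Feature Extraction 10.5.1.1 on a grid of mouse build mm9, and 1 file per array was deposited. The deposited processed intensity is linear, with local background subtracted and no normalization between arrays. The deposited median spot and background intensities served 1 alternative, and the deposited marks for outliers and for signal well above background were used as given (a probe counted as above background where at least 0.5 of its spots did). Groups came from the sample titles.

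From these, log2 signals of the 41174 probes were formed here, with outlier spots (47 to 113 of 43379 per array, none saturated) left out and spots of a probe averaged, and quantile normalized over the 15 arrays. The number of arrays and the signal over background limit the precision. Probes were named through transcript accessions in RefSeq (64.8% matched). Genes of the lists with no named probe were not analysed here. Each comparison was fitted on its own groups with limma 3.58.1 in R 4.3.3, using Benjamini-Hochberg adjustment over all probes tested. The methods' t-test among the alternatives below was adjusted the same way, whereas the study adjusted its P-values by Bonferroni correction. Plots were made in Python 3.11.15 (matplotlib 3.10.9). The main Limma fit, the t-test and SFC were run on simulated normalized values with independent noise for each probe. That simulation did not cover reading, normalization, probe naming, the bounds or the blocks. The alternatives were quantile normalization within a comparison, scaling to the 75th percentile, normexp (offset 50, on median signals, mean spot signals not being used here), a filter on dim probes, a replicate block, 1 fit of 5 groups, slide as a random block, the methods' t-test, SFC with a bin of 1000 and Bonferroni adjustment (a standard normal reference was used), leaving out each array, and, added after the data were seen, the comparison within a slide.

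The members, lists and naming rule were chosen with earlier results of these data known. Named genes were all members with every probe, up to 3 called genes per pathway list and comparison with no overlap between groups and the smallest adjusted P, and the 2 genes most like each member. Named genes of 2 lists are not all reported here.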

Additional observations from a re-analysis of the deposited data

Results flagged for a closer look

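The POD5 differences of the heart and the liver differed by the interaction test for 2 of 9 members, where 13.7% of 41006 probes were called. Both probes of each were called, but the 2 Runx3 probes gave values of opposite sign. Organ, strain pair and graft site cannot be told apart in that test. For Id2 the heart difference was more positive by 1.44 on the brighter and by 1.97 on the dimmer probe. For Runx3 it was more positive by 1.27 on the brighter probe, a call lost without heart control 1 (adjusted P = 0.0577). On the dimmer Runx3 probe the value was -1.94, but that probe was not well above background in the liver controls. With only a lower bound for its liver difference, the opposite sign is not settled. The call on the dimmer probe was lost in 14 of 19 alternatives, and its value was -0.15 with normexp correction.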

How the results depend on the processing

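Of 9 members, Limma called 8 for the heart, 2 for POD5 livers, 4 for POD8 livers, 0 between the days, 2 in the comparison of the organs' responses and 5 between the control organs. Of all probes tested it called 32%, 3.16%, 4.97%, 0%, 13.7% and 48.2% in the same order. SFC called 1, 3, 2, 1 (between the days) and 0 (between the controls), and the methods' t-test called 1 in the livers of each day. For POD5 livers, scaling to the 75th percentile, the filter on dim probes, 1 fit of 5 groups and slide as a random block called 6, and normexp 4. Over all probes these 5 settings called 1635, 2204 (of 23754 tested), 6205, 3587 and 1878, against 1301 in the main fit. The filter tested 8 members at POD8 and between the controls. With the replicate number as a block, 0 members were called in the livers of either day, 7 in the heart and 3 between the controls. Deviations of same-numbered arrays had correlations of -0.12 to 0.09, and 3 of 15 matched their own number best. With 3 arrays a group, this cannot decide whether the numbers pair the samples. Within the slide that held both groups, an alternative chosen after the data were seen, 0 were called at POD8. Leaving out 1 array gave 6 to 8 for the heart, 0 to 2 for POD5 livers, 1 to 5 for POD8 livers, 0 between the days, 1 to 3 between the organs' responses and 3 to 6 between the controls. The cause of these shifts was not tested.

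Over single probes, 983 of the alternative values kept direction and side of the threshold, 108 lost a call, 39 gained one and 8 turned sign. Those that turned were the dimmer Id2 probe at POD8 within the slide (0.015), the dimmer Runx3 probe between the days under SFC (0.027), Gfi1 between the organs' responses under scaling to the 75th percentile (0.74) and normexp (0.28), and Eomes between the controls under that scaling (0.87, below background in both). Leaving out 1 array turned the dimmer Runx3 probe between the days (-0.46 to 0.052), Eomes between the organs' responses (-0.11 to 0.88) and the dimmer Tcf7 probe there (-0.071 to 1.77). Over all probes, the heart count of 13116 became 21209 under scaling, 7216 with slide as a block and 242 under SFC. The POD5 liver count of 1301 became 2204 with the filter, 6205 with 1 fit of 5 groups, 3587 with slide, 231 by the t-test, 346 under SFC and 0 with the replicate block. At POD8, 2046 became 13022, 4791, 5574, 816, 357 and 0 under scaling, the fit of 5 groups, slide, the t-test, SFC and the replicate block, and 0 within the slide. Between the days the alternatives called 0 to 213 probes. Scaling called 15707 rather than 5605 between the organs' responses, and SFC 595 rather than 19781 between the controls. Leaving out 1 array gave 7573 to 17228 for the heart, 28 to 1026 for POD5 livers, 306 to 2623 for POD8 livers and 2923 to 7210 between the organs' responses.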
